A study of Mus musculus with 7 samples.

Results

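The 5 genes of the Ikaros zinc finger family, Ikzf1 to Ikzf5, were followed in splenic CD4+CD25+ cells of aged and young mice. They were chosen by their gene symbols in the deposited table, all 5 were found among its 25469 genes, and all 5 passed the filter on low counts that left 13904 genes for testing. RNA was sequenced from 3 aged libraries (18 months old) and 4 young libraries (8 weeks old in the labels, 10 weeks in the methods of the study), each labelled as a biological replicate. All mice were labelled WT; the methods of the study name male C57BL/6 mice. Cells were isolated from spleen with magnetic beads for regulatory T cells (Tregs), so they form an enriched population and not a pure one, and cDNA came from a low-input SMART-Seq v4 kit without molecular identifiers. The question put to the family was which of its members differed with age in these cells, and whether its make-up did.

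Ikaros family proteins are transcription factors of lymphocytes. Zinc fingers near the N-terminus bind DNA, and a pair of fingers at the C-terminus lets the proteins form dimers with themselves and with each other, so that the mixture of members present in a cell sets which dimers can form. Ikaros (Ikzf1) is the founding member and is used by most lymphocytes, Aiolos (Ikzf3) is used by B cells and activated T cells, Helios (Ikzf2) marks a large part of Tregs, Eos (Ikzf4) acts with Foxp3 in gene repression in Tregs, and Pegasus (Ikzf5) is the most divergent member. Foxp3 is the transcription factor that defines Tregs.

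The coding sequence of the second finger is shown because it is part of the DNA-binding block and is the finger through which thalidomide analogues bring human Ikaros and Aiolos to the ubiquitin ligase receptor cereblon. Capitals mark the codons of the 2 cysteines and the 2 histidines that hold the zinc, and each sequence was read from the GENCODE M21 transcripts of the gene.
Ikzf1: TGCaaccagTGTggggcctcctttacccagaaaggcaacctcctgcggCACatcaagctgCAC
Ikzf2: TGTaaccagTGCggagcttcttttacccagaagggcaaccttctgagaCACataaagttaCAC
Ikzf3: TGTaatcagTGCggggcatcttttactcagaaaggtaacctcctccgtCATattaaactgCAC
Ikzf4: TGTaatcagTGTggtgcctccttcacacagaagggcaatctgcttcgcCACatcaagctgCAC
Ikzf5: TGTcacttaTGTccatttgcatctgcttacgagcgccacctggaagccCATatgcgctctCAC
Between Ikzf1, Ikzf2, Ikzf3 and Ikzf4 these 63 bases were 76.2% to 84.1% identical, and between Ikzf5 and the others 41.3% to 47.6%. Fingers were numbered from the start of the reading frame, so the finger shown for Ikzf5 matches the others by position only. No finger of this length in Ikzf5 was more than 50.8% identical to the second finger of another member. The first finger of Ikzf5 was 60.3% to 65.1% identical to the third finger of the others, and its last finger 66.7% to 68.3% to theirs. A search of the longest reading frame for fingers of 21 or 22 codons, with a histidine or a cysteine as the last ligand, found 5 in each of Ikzf1 to Ikzf4 and 4 in Ikzf5. Of these, 4 in each of Ikzf1 to Ikzf4 and 3 in Ikzf5 had the 21 codons and the closing histidine of the finger shown. The longest run of identical bases between the transcripts of any pair of members was 32, between Ikzf2 and Ikzf4.

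The genes lie on 4 chromosomes of the GRCm38 build. Ikzf1 lies on the plus strand at chr11:11685003-11772926. Ikzf3 lies on the minus strand of the same chromosome at chr11:98464902-98546031. Ikzf2 lies at chr1:69531214-69687245, Ikzf4 at chr10:128630843-128645991 and Ikzf5 at chr7:131388652-131410521, all on the minus strand. In the GENCODE M21 annotation, exons of Ikzf1 and Ikzf3 shared no base with another gene, and those of Ikzf2 and Ikzf4 shared 1.24% and 0.617%. In contrast, 84.5% of the exon bases of Ikzf5 were shared, mostly with Pstk on the opposite strand, which leaves 0.886 kb that belong to Ikzf5 alone. If the counting ignored strand, reads on the shared bases could not be given to either gene, so the level of Ikzf5 is uncertain.

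The libraries held 10734234 to 13649310 counts on genes. A count of 3 corresponded to 0.210 to 0.302 CPM (counts scaled to a common library size), and this limit covers counting error only. T cell and Treg genes were present in every library, with Foxp3 at 447 to 622 CPM in aged and 394 to 518 CPM in young libraries. Of 8 Treg genes 1, Gpr83, passed the edgeR test on all libraries (log2 fold change -1.71, adjusted p = 0.00274), where 16.7% of all genes tested passed. DESeq2 called 2 of the 8 lower (5.34% of all genes with a count), as did limma (7.03% to 8.44% of all genes tested). Without aged replicate 1 edgeR also called 2 lower (10.2% of all genes). Without young replicate 2 edgeR called 2 higher (9.11%) and 1 lower (5.4%). Foxp3 (0.21, adjusted p = 0.409), Il2ra (-0.61, adjusted p = 0.0588) and Ctla4 (0.86, adjusted p = 0.103) did not pass in edgeR on all libraries, and the Foxp3 value was 0.05 without aged replicate 1. Markers of other cells were present as well. Haemoglobin genes took 1.27% to 13.1% of counts in aged and 1.24% to 10.4% in young libraries, mitochondrial genes took 5.08% to 10.7% against 2.63% to 3.23%, and 7 neutrophil genes summed to 585 to 3249 CPM against 169 to 610 CPM. No gene of these lists or of the B cell list was at 0 in all libraries. In such bulk RNA, fewer cells of a type and less RNA per cell cannot be told apart. The edgeR p-values weigh the difference between the ages against the spread of these libraries. That spread was estimated with the help of all genes tested and is shared by both ages. The permutation p-values rank the observed split of the libraries among all 35.

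Ikzf1, which encodes Ikaros, fell with age and was the single family gene past the threshold. Its levels, given in the order of the replicate numbers, were 368, 269 and 291 CPM in the aged libraries. The young libraries had 447, 447, 451 and 456 CPM. Every aged library lay below every young one, and the young libraries were nearly equal. The young mean was 450 ± 4.18 CPM (SD, n = 4) and the aged mean 309 ± 52.1 CPM (SD, n = 3), so that aged cells held 68.7% of the young level. The log2 fold change was -0.54 (SE 0.13, 95% confidence interval -0.83 to -0.25, adjusted p = 0.0239 by edgeR). Of all 13904 genes tested, 16.7% were called at an adjusted p under 0.05, 9.8% higher and 6.94% lower in aged. The young coefficient of variation of Ikzf1 was 0.928%, under the 1.30% that counting alone gives, whereas the aged one was 16.8% against 1.73% from counting. The call rested on few libraries: leaving out aged replicate 2, aged replicate 3, or young replicate 1, 3 or 4 took it past 0.05, with adjusted p from 0.0601 to 0.0903, while the log2 fold change ranged from -0.69 to -0.45 over the 7 fits that leave out 1 library.

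Ikzf3, which encodes Aiolos, was the second gene with lower values in aged libraries. It stood at 293, 151 and 191 CPM in aged and at 337, 298, 316 and 306 CPM in young replicates. The groups did not overlap, although aged replicate 1 lay just below young replicate 2. The log2 fold change of -0.57 (SE 0.21, 95% confidence interval -1.04 to -0.10) had an adjusted p of 0.0931 in edgeR and did not pass. Mean levels were 211 ± 73.1 CPM (SD, n = 3) and 314 ± 16.7 CPM (SD, n = 4). The value depended on single aged libraries: without aged replicate 1 the log2 fold change of Ikzf3 was -0.88 (adjusted p = 0.00506). Leaving out aged replicate 2 gave -0.38 (adjusted p = 0.198). Aged replicate 1 had the lowest haemoglobin share of the aged libraries (1.27%), the highest mitochondrial share (10.7%) and the highest neutrophil sum (3249 CPM), and the part of these in the Ikzf3 value was not tested.

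**Figure D1:**
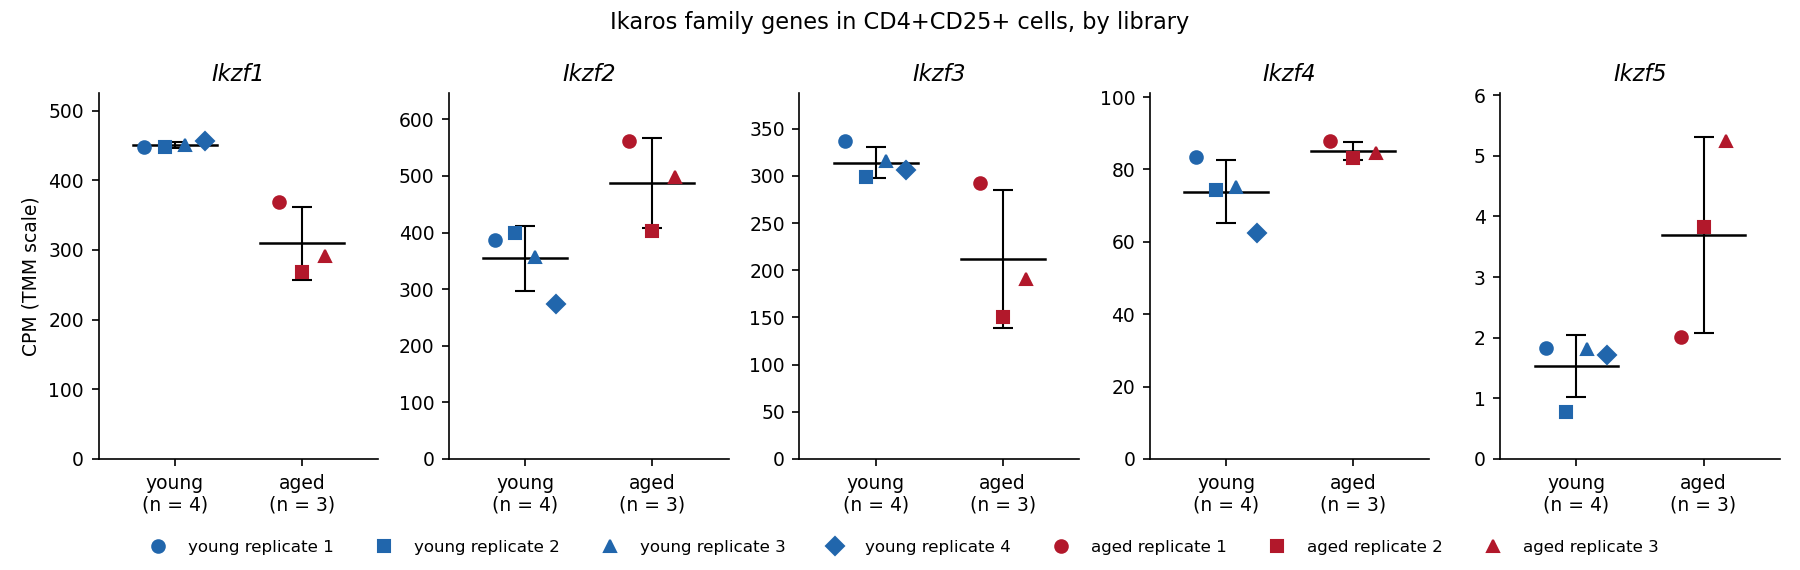
Level of each family gene in CPM (TMM scale, linear axis from 0, a separate axis for each gene) in the 4 young (blue) and 3 aged (red) libraries. Horizontal lines are means, bars are SD, and symbol shapes give the replicate. All aged libraries lie below the young ones for Ikzf1 and Ikzf3 and above them for Ikzf2 and Ikzf5, and the groups overlap for Ikzf4.

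The B cell content bears on both genes, since B cells also express Ikaros and Aiolos. The 10 B cell genes summed to 1107, 1579 and 2068 CPM in aged and to 2039, 1580, 1815 and 2490 CPM in young replicates, and the groups overlapped. Aged replicate 1 had the lowest B cell sum of all 7 libraries and the highest Ikzf1 and Ikzf3 of the aged ones. The median log2 fold change of the list was -0.45, against 0.019 over all genes. It was -0.18 without aged replicate 1 and -0.73 without aged replicate 3. None of the 10 passed the edgeR test on all libraries, 4 were lower at an unadjusted p under 0.05 (15.1% of all genes tested), and DESeq2 called 3 lower (5.34% of all genes with a count). Without aged replicate 3 edgeR called 3 of them lower (3.16% of all genes tested). Of 5 genes of naive and conventional T cells, 3 fell, against 6.94% of all genes: Ccr7 (log2 fold change -0.77), Lef1 (-1.13) and Tcf7 (-0.43). Il7r (0.25, adjusted p = 0.532) and Cd40lg (-0.01, adjusted p = 0.976) did not pass. Lef1 kept its call with each library left out in turn and with a replicate block. Ccr7 and Tcf7 both lost theirs without aged replicate 2, aged replicate 3 or young replicate 1 and with the block, and Tcf7 also without young replicate 3 or young replicate 4. The mitochondrial share also did not overlap between the ages, and 5 of 7 neutrophil genes were called higher in aged (9.8% of all genes), with a median log2 fold change of 1.92. Without aged replicate 1 this count was 3 (11.3% of all genes called higher). It was 2 without young replicate 1 (6.17%) or young replicate 4 (5.71%). Of 8 macrophage genes 3 were called lower and 1 higher (6.94% and 9.8% of all genes). Of 7 dendritic cell genes, with a median of -0.72, 2 were called lower and 1 higher. Without aged replicate 3 the dendritic cell calls were 3 lower (3.16% of all genes) and 0 higher (5.74%). Only 1 was lower without aged replicate 1 (10.2%), aged replicate 2 (4.6%) or any of young replicates 1, 3 and 4 (3.31% to 3.55%). The 6 plasma cell genes summed to 749, 1034 and 1304 CPM in aged replicates and to 325, 2003, 497 and 415 CPM in young ones. Of these 6 genes 1, Prdm1, was called higher in aged (38.0 to 58.1 CPM, against 15.2 to 36.2 CPM in young, adjusted p = 0.0326), as were 9.8% of all genes. Without young replicate 2 the count was 4 (9.11% of all genes). It was 0 without aged replicate 1, aged replicate 3 or any of young replicates 1, 3 and 4 (5.71% to 11.3%). The 5 natural killer cell genes summed to 17.4 to 27.7 CPM in aged and 28.3 to 39.4 CPM in young libraries. The part of these cell populations and of the mitochondrial share in the Ikzf1 and Ikzf3 values was not tested.

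Ikzf2, which encodes Helios, had higher values in aged libraries. It stood at 561, 403 and 498 CPM in aged and at 386, 400, 357 and 273 CPM in young replicates. The groups did not overlap, but aged replicate 2 lay just above young replicate 2. Mean levels were 488 ± 79.7 CPM (SD, n = 3) and 354 ± 56.9 CPM (SD, n = 4), an aged level of 138% of the young one. The log2 fold change of 0.46 (SE 0.17, 95% confidence interval 0.08 to 0.84) did not pass in edgeR (adjusted p = 0.0942). Removing trends with GC content and gene length raised it to 0.56 (adjusted p = 0.0266). The study measured Helios protein in Tregs by flow cytometry and reported it as unchanged between aged and young mice under the basal condition. The values given here are for mRNA of the whole CD4+CD25+ isolate.

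Ikzf4, which encodes Eos, had the smallest difference between the ages. Its levels were 87.8, 83.2 and 84.4 CPM in aged and 83.4, 74.3, 75.3 and 62.4 CPM in young replicates. Young replicate 1 lay between the aged values, so the groups overlapped, and young replicate 4 was the lowest. The log2 fold change was 0.21 (SE 0.11, 95% confidence interval -0.04 to 0.45, adjusted p = 0.223 by edgeR), which leaves room for a rise of the size of its upper bound. It was 0.13 without young replicate 4 and 0.08 when libraries were scaled on T cell genes. The aged libraries differed among themselves by no more than counting gives, with a coefficient of variation of 2.81% against 3.31%.

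Ikzf5, which encodes Pegasus, had the fewest counted reads of the family and the largest estimate. Only 23, 38 and 56 reads were counted in aged and 21, 11, 23 and 24 in young replicates. These correspond to 2.01, 3.83 and 5.24 CPM in aged and to 1.84, 0.771, 1.82 and 1.72 CPM in young libraries. All were above the limit of 3 counts, and aged replicate 1 lay just above the highest young value. The log2 fold change of 1.27 (SE 0.40, 95% confidence interval 0.34 to 2.19) had an adjusted p of 0.0648 in edgeR. Without aged replicate 1 it was 1.56 and passed (adjusted p = 0.0228). Leaving out aged replicate 3 gave 0.92 (adjusted p = 0.233). Counting alone gives a coefficient of variation of 22.5% in the young and 16.01% in the aged libraries at this depth, where 33.4% and 43.9% were found. The overlapping gene Pstk stood at 15.5 to 17.5 CPM in aged and 13.8 to 19.8 CPM in young libraries, with a log2 fold change of 0.04 (adjusted p = 0.899).

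In total, 1 of 5 family genes was called against 16.7% of all genes tested. DESeq2 called Ikzf1, Ikzf3 and Ikzf5 (11.4% of all genes with a count), as did edgeR without aged replicate 1 (21.5% of genes tested). None of the 5 was called without aged replicate 2, aged replicate 3 or any of young replicates 1, 3 and 4. In these fits 8.9% to 12.2% of all genes were called. Neither scaling by library size only (13.2% of all genes called) nor the replicate block (2.1%) gave a family call. Values of the groups did not overlap for 4 of 5, which was the case for 29.9% of all genes. An exact two-sided permutation test of the CPM values gave p = 0.0571 for each of these 4 genes, the smallest that 3 against 4 libraries allow, and p = 0.114 for Ikzf4. The sign of each of the 5 log2 fold changes was kept in all 20 other fits, 13 with another setting and 7 with 1 library left out. Ikzf1 was called in 11 of the 13 and 2 of the 7. Ikzf2 was called in 1 of the 13, Ikzf3 and Ikzf5 each in 1 of the 13 and 1 of the 7, and Ikzf4 in none of the 20, where its adjusted p ran from 0.126 to 0.792.

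**Figure D2:**
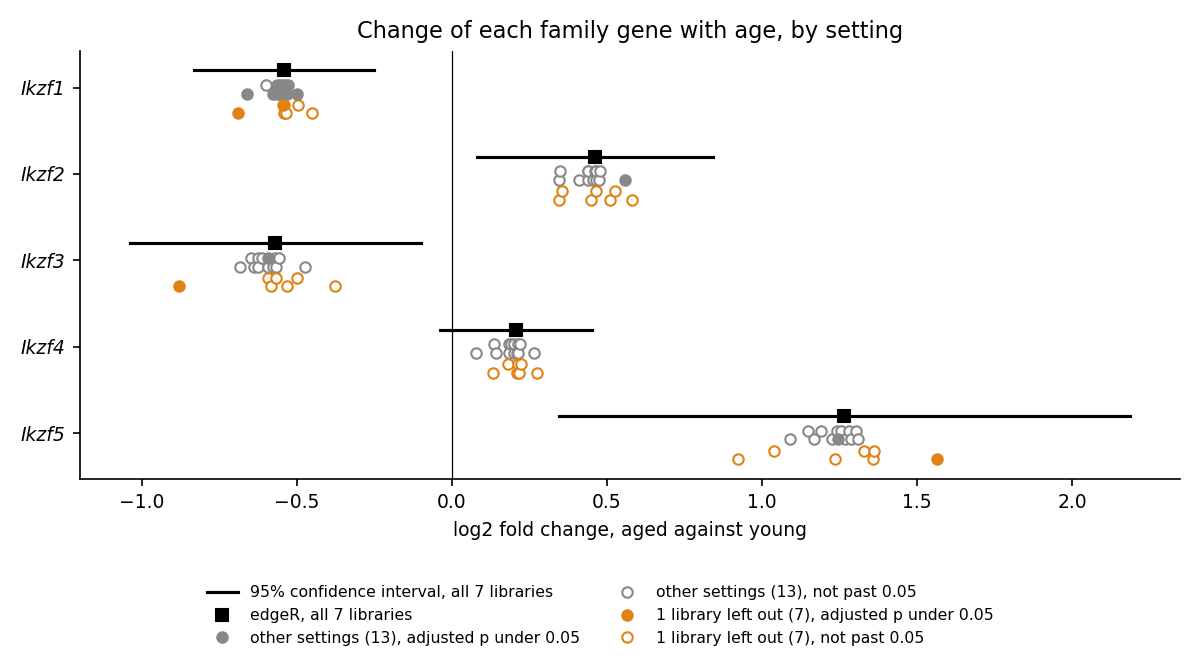
Log2 fold change of each family gene, aged against young, from edgeR on all 7 libraries (black squares, with 95% confidence intervals), in 13 other settings (grey) and with each library left out in turn (orange). Filled circles have an adjusted p under 0.05, open ones do not; neighbouring circles are shifted vertically for sight only. No estimate crosses 0, and filled circles are frequent for Ikzf1 alone.

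Levels of different genes were compared per kb of merged exon. In young libraries the order was Ikzf1 (77.9 ± 0.723 CPM per kb, SD, n = 4), Ikzf3 (35.9 ± 1.91), Ikzf2 (30.5 ± 4.90), Ikzf4 (12.3 ± 1.44) and Ikzf5 (0.268 ± 0.0896). In aged libraries it was Ikzf1 (53.5 ± 9.01 CPM per kb, SD, n = 3), Ikzf2 (42.0 ± 6.86), Ikzf3 (24.2 ± 8.35), Ikzf4 (14.2 ± 0.400) and Ikzf5 (0.645 ± 0.283). The mRNAs of Ikzf2 and Ikzf3 thus changed places. The ranges of Ikzf3 and Ikzf2 overlapped in young libraries, where 3 of 4 libraries had Ikzf3 above Ikzf2. The ranges of Ikzf1 and Ikzf2 overlapped in aged libraries, although Ikzf1 was the higher in each of the 3. This order depends on the length used for Ikzf3, whose merged exons (8.754 kb) are far longer than its longest protein-coding transcript (3.658 kb). With the lengths of such transcripts, chosen after the data were seen, the order was Ikzf1, Ikzf3, Ikzf2, Ikzf4, Ikzf5 at both ages, with Ikzf3 at 57.8 ± 19.98 CPM per kb and Ikzf2 at 52.6 ± 8.59 CPM per kb in aged libraries, whose ranges overlapped. Ikzf1, Ikzf2 and Ikzf3 were abundant among the 13904 genes, at the 97.7, 97.8 and 96.1 percentile of the mean log2 CPM. Ikzf4 was at 80.7 and Ikzf5 at 16.2. Reads on shared exon bases may be missing from the count of Ikzf5. Per kb of the exon bases it does not share, Ikzf5 stood at 4.17 CPM in aged and 1.73 CPM in young libraries, still the lowest of the 5.

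The shares of the members did not overlap between the ages, whereas the sum of the family did. The summed level was 157 ± 6.39 CPM per kb (SD, n = 4) in young and 135 ± 24.03 CPM per kb (SD, n = 3) in aged libraries, and the ranges overlapped (exact permutation test, p = 0.229). Ikzf1 made up 39.7%, 41.2% and 38.7% of it in the 3 aged libraries, compared with 47.4%, 48.9%, 49.5% and 53.3% in the 4 young ones. Ikzf2 made up 30.1%, 30.7% and 32.99% in aged and 20.4%, 21.7%, 19.5% and 15.9% in young replicates. The mRNA share of Ikzf1 was thus lower and that of Ikzf2 higher in each aged library, aged replicate 1 included. Ikzf3 made up 17.6 ± 2.89% (SD, n = 3) in aged and 22.9 ± 0.972% (SD, n = 4) in young libraries. Ikzf4 made up 10.7 ± 1.58% and 7.83 ± 0.615%, and Ikzf5 0.505 ± 0.254% and 0.171 ± 0.0577%. For these members aged replicate 1 lay close to the young range. Its Ikzf3 share was 20.8%, against 21.5% in young replicate 2. Its Ikzf4 share was 9.13%, against 8.51% in young replicate 1, and its Ikzf5 share 0.219%, against 0.203% in young replicate 4. Each share had an exact permutation p of 0.0571, the smallest possible. The shares depend on the length used. With the longest protein-coding transcript Ikzf3 made up 30.2% in aged and 38.0% in young libraries, and on the exon bases it does not share Ikzf5 made up 3.14% and 1.09%. The 5 shares add to the whole and are not independent of each other.

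**Figure D3:**
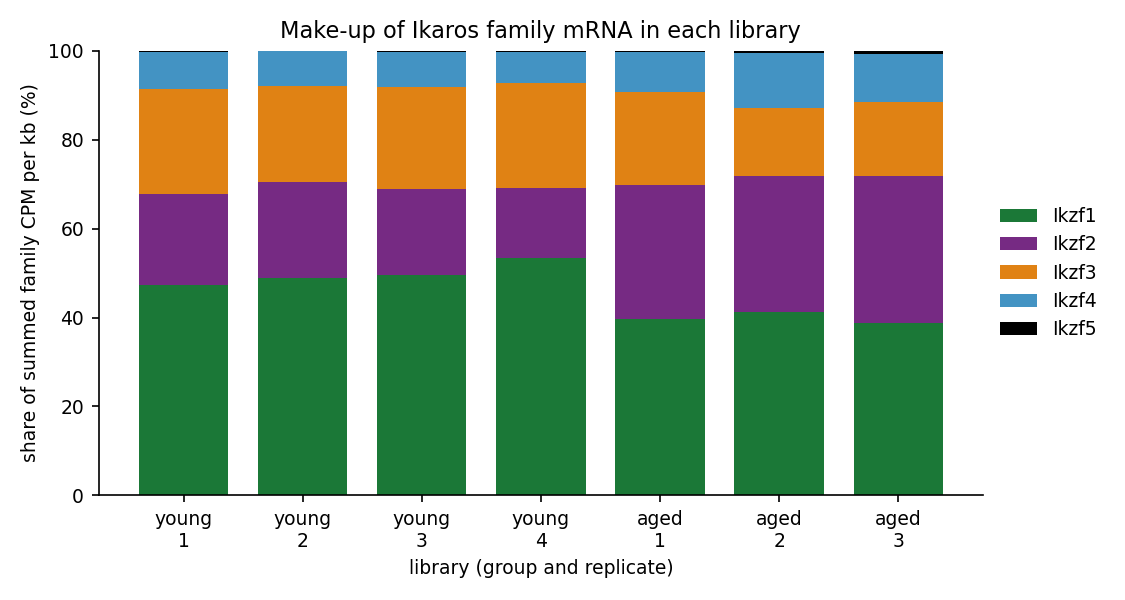
Share of each family gene in the summed CPM per kb of merged exon, in percent, 1 bar for each of the 7 libraries. In the aged libraries the green segment (Ikzf1, 38.7% to 41.2%) is shorter and the purple one (Ikzf2, 30.1% to 32.99%) taller than in the young libraries (47.4% to 53.3% and 15.9% to 21.7%).

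Ratios within a library do not depend on how libraries are scaled, and 10 pairs of members were compared. The log2 ratio of Ikzf1 to Ikzf2, in counts per kb, was 0.40, 0.42 and 0.23 in aged and 1.22, 1.17, 1.34 and 1.75 in young replicates. Ikzf1 mRNA thus exceeded Ikzf2 mRNA 1.28-fold in aged and 2.58-fold in young libraries (geometric means). The log2 difference was -1.02 (exact two-sided permutation test, p = 0.0571, adjusted over the 10 pairs 0.0952, n = 3 and 4). The groups were well apart, and leaving out any 1 library kept the difference between -1.08 and -0.89. The log2 ratio of Ikzf2 to Ikzf3 was 0.53, 1.01 and 0.98 in aged and -0.21, 0.02, -0.23 and -0.57 in young replicates. This difference of 1.09 came without overlap and with the same p-values, whereas the ratio of Ikzf1 to Ikzf3 was alike, 2.28 in aged and 2.17 in young libraries. The log2 difference of the latter was 0.07 (exact permutation p = 0.571), and it turned to -0.05 without aged replicate 2. Its level rests on the merged exon length of Ikzf3: per kb of the longest protein-coding transcript, Ikzf1 and Ikzf3 stood at 59.9 and 57.8 CPM in aged and at 87.2 and 85.9 CPM in young libraries. The difference between the ages does not depend on length. Ikzf1 and Ikzf3 thus had lower values together relative to Ikzf2. Relative to Ikzf4 they had log2 differences of -0.77 for Ikzf1 and -0.84 for Ikzf3, both without overlap between groups. Ikzf2 relative to Ikzf4 overlapped between the ages, with a log2 difference of 0.25 (exact permutation p = 0.114), which was 0.17 without aged replicate 1. Of the 4 ratios to Ikzf5, those of Ikzf1 (log2 difference -1.80) and Ikzf3 (-1.87) did not overlap and those of Ikzf2 (-0.78) and Ikzf4 (-1.03) did. The Ikzf2 value was -1.27 without aged replicate 1, -0.49 without aged replicate 3 and -0.41 without young replicate 2.

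Ratios to Foxp3 set the family against the Treg-defining factor of the same library. The log2 ratio of Ikzf1 to Foxp3, per kb, was -1.09, -1.17 and -0.96 in aged and -0.43, -0.55, -0.14 and -0.13 in young replicates. The difference was -0.76 without overlap, and that of Ikzf3 was -0.83 without overlap (exact permutation p = 0.0571 each, adjusted over 10 ratios 0.143). Ikzf2, Ikzf4 and Ikzf5 overlapped between the ages on this scale, with log2 differences of 0.26, 0.01 and 1.04. With 1 library left out, that of Ikzf2 fell to 0.14 without aged replicate 3. That of Ikzf5 ran from 0.64 without aged replicate 3, and 0.66 without young replicate 2, to 1.57 without aged replicate 1. The value for Ikzf4 changed sign in 5 of its 9 alternatives. A list of 8 T cell genes had a median log2 fold change of 0.24, against 0.019 over all genes. Only Cd4 had an estimate below 0 (-0.30, adjusted p = 0.117 by edgeR). Of these genes 1, Cd3e, was called higher (0.46, adjusted p = 0.0301 by edgeR), as were 9.8% of all genes. That call was lost without aged replicate 2, aged replicate 3 or any of young replicates 1, 3 and 4. DESeq2 called 1 of the 8 higher and 1 lower (6.09% and 5.34% of all genes with a count). Relative to the summed counts of these 8 genes, the difference was -0.68 for Ikzf1 without overlap, and -0.75 for Ikzf3, 0.34 for Ikzf2 and 0.09 for Ikzf4 with overlap. The value of Ikzf2 lay between 0.17 (without aged replicate 1) and 0.50, that of Ikzf3 between -1.07 and -0.50 and that of Ikzf4 between 0.0045 and 0.17, with 1 library left out. For Ikzf5 the difference was 1.11, and aged replicate 1 lay barely above the highest young value. After thinning every library to the smallest total count its exact permutation p was 0.114, and without young replicate 2 the difference was 0.73.

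**Figure D4:**
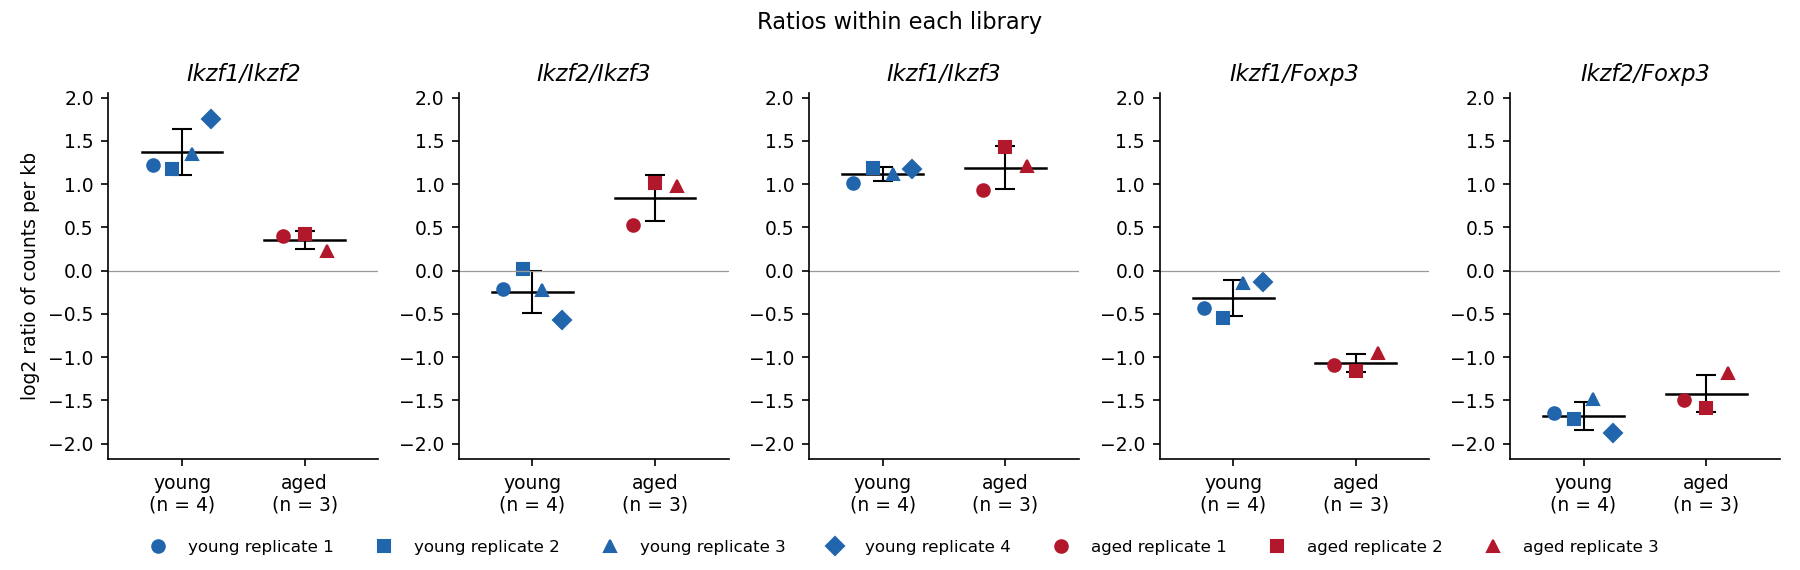
Log2 ratio of counts per kb within each library for 3 pairs of family genes and for Ikzf1 and Ikzf2 against Foxp3, in the 4 young (blue) and 3 aged (red) libraries, with mean and SD; 0 is an equal level per kb. The ages are apart for Ikzf1/Ikzf2, Ikzf2/Ikzf3 and Ikzf1/Foxp3 and overlap for Ikzf1/Ikzf3 and Ikzf2/Foxp3.

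Ikaros proteins work through complexes that change chromatin and are controlled by phosphorylation and degradation, so 38 genes of such partners and of genes known to be bound or controlled by Ikaros were read beside the family. Of these, 34 were tested and 8 called (23.5%, against 16.7% of all genes), 7 lower and 1 higher in aged. This count was 3 (8.82%, against 9.03% of all genes) without young replicate 4, 4 (10.8%, against 8.9%) without aged replicate 3 and 5 (14.7%, against 9.28%) without young replicate 3. The NuRD complex couples a nucleosome remodelling ATPase with histone deacetylases and is the main partner of Ikaros in lymphocytes. Of its 13 genes only Chd4, the ATPase that Ikaros binds, passed, against 6.94% of all genes called lower. Chd4 stood at 439, 392 and 372 CPM in aged and 634, 582, 619 and 643 CPM in young replicates, so that every aged library lay below every young one. Its log2 fold change was -0.63 (SE 0.11, adjusted p = 0.00802), and it was called with any 1 library left out. Of the other 12, 11 had estimates below 0 without passing. In all, 7 of the 13 had an unadjusted p under 0.05, each of them lower (15.1% of all genes tested), and DESeq2 called 3 lower (5.34% of all genes with a count). The median of the list was -0.25, against 0.019 over all genes. The summed level of the 13 genes was 2221 to 2508 CPM in aged and 2822 to 2930 CPM in young libraries, without overlap.

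Of 5 genes of the Sin3 and CtBP co-repressors, which Ikaros also recruits, Ctbp1 and Sin3a fell, with log2 fold changes of -0.37 (adjusted p = 0.0248) and -0.34 (adjusted p = 0.0270), against 6.94% of all genes called lower, and the median was -0.34. Both calls were unsteady: Ctbp1 was called in 2 and Sin3a in 1 of the 7 fits with a library left out. Casein kinase 2 phosphorylates Ikaros and lowers its binding to DNA, and protein phosphatase 1 reverses this. Of 6 genes of these enzymes, 2 catalytic subunits of the phosphatase fell, Ppp1ca (log2 fold change -0.47, adjusted p = 0.0171) and Ppp1cc (-0.55, adjusted p = 0.0221), against 6.94% of all genes. The third catalytic subunit, Ppp1cb, did not pass (0.07, adjusted p = 0.937) and ran from -0.49 without aged replicate 2 to 0.46 without aged replicate 1. None of the 3 kinase genes passed (-0.23 to 0.11). Ppp1ca was called in 5 and Ppp1cc in 3 of the 7 such fits. None of 5 genes of the cereblon ubiquitin ligase passed in edgeR on all libraries or in DESeq2, and 1 of them, Crbn, the receptor subunit, had an unadjusted p under 0.05 (log2 fold change 0.45, adjusted p = 0.0785), as had 4540 of the 13904 genes tested. Crbn was called with GC content and length trends removed (0.51, adjusted p = 0.0397), without aged replicate 2 (0.58, adjusted p = 0.0371) and without young replicate 2 (0.54, adjusted p = 0.0467).

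**Figure D5:**
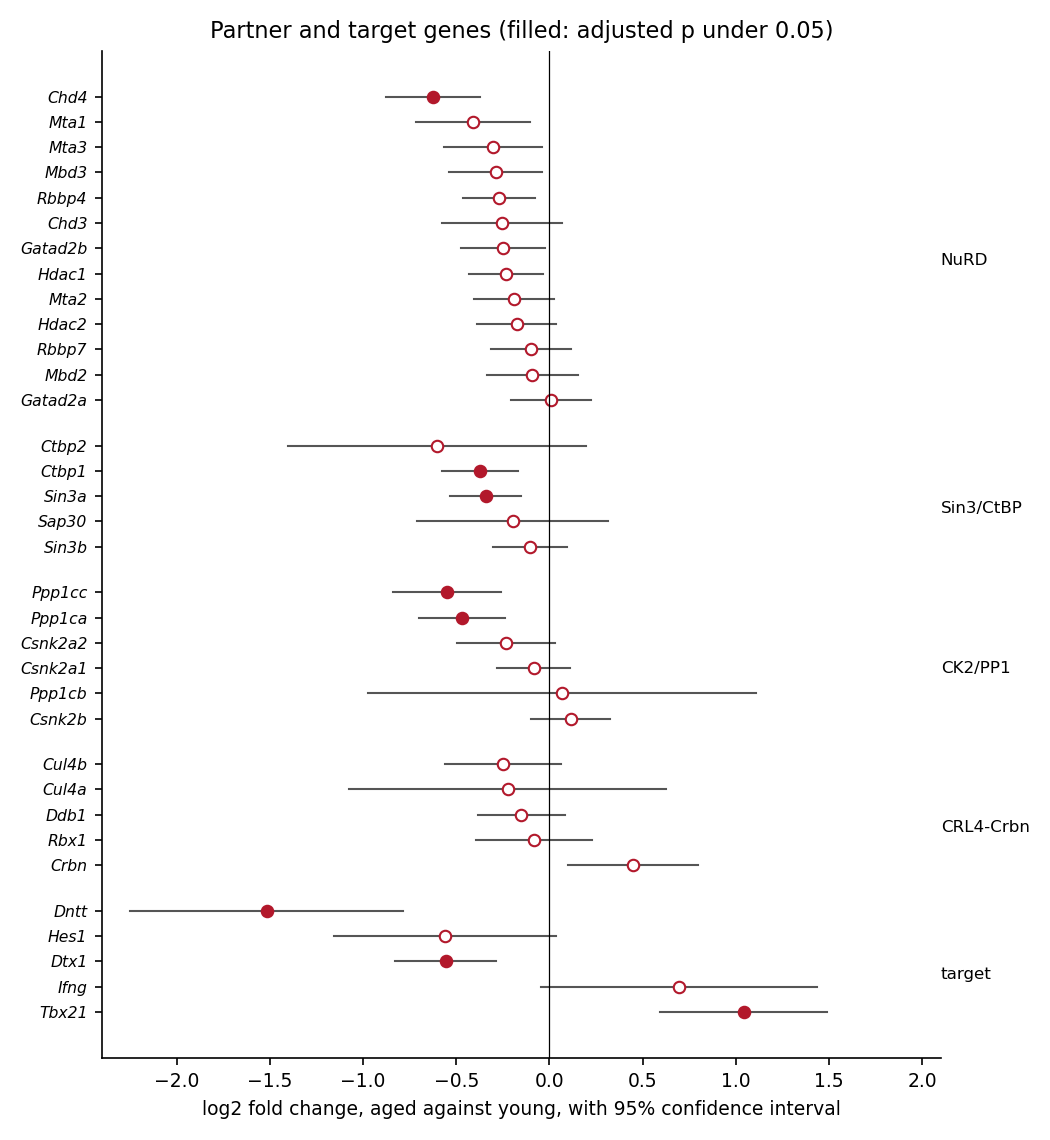
Log2 fold change, aged against young, with 95% confidence interval, for the 34 tested genes of partner complexes and targets; filled circles have an adjusted p under 0.05 in edgeR. Of 13 NuRD genes 12 lie below 0 and only Chd4 is filled, and Tbx21 is the single filled circle above 0.

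Of 9 target genes, 5 had enough counts to be tested and 3 were called, 1 higher and 2 lower, with a median of -0.56 (9.8% of all genes were called higher and 6.94% lower). Tbx21, which encodes the type 1 helper factor T-bet, stood at 14.4, 18.3 and 18.0 CPM in aged and 6.03, 7.43, 9.32 and 9.96 CPM in young replicates. It rose by a log2 fold change of 1.04 (SE 0.20, adjusted p = 0.0105), without overlap and with any 1 library left out. Ifng, the cytokine that T-bet drives, had a log2 fold change of 0.69 and did not pass (adjusted p = 0.179), but was called without young replicate 2 (1.01, adjusted p = 0.0460). Dtx1, a regulator of Notch signalling, stood at 117, 130 and 142 CPM in aged and 186, 199, 166 and 214 CPM in young replicates and fell by 0.56 on the log2 scale (adjusted p = 0.0163), a call lost without young replicate 4 alone among the 7. Dntt, which encodes terminal transferase of lymphocyte precursors, fell by 1.52 (SE 0.32, adjusted p = 0.0163) at 1.78 to 2.53 CPM in aged and 4.37 to 9.18 CPM in young libraries, a call lost without aged replicate 3 alone. Hes1, a Notch target, did not pass (log2 fold change -0.56, adjusted p = 0.176). The surrogate light chain gene Igll1 of precursor B cells had 0, 1 and 0 reads in aged and 10, 11, 10 and 12 in young replicates and was under the filter of the edgeR test. It was called lower by DESeq2 (adjusted p = 0.00612) and by edgeR without the filter (adjusted p = 0.00623). Il2, Notch3 and Vpreb1, with 0 to 21 reads in each library, were also under the filter and were not called in any fit that kept them.

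The genes most like each member were sought by Pearson's r of log2 CPM over the 7 libraries, among genes with a mean log2 CPM of at least 3 (9548 for Ikzf1 to Ikzf4, 9549 for Ikzf5). The 7 points fall into 2 ages and share library depth and cell make-up, so r is a description. Among the 3 genes most like Ikzf1 were Apbb1ip (r = 0.994) and Ptpra (0.993). Ikzf3 was most like the chromatin remodelling gene Arid1b (0.996), Dnajc13 (0.995) and the helicase gene Dhx9 (0.995). Ikzf2 was most like the nuclear receptor gene Nr4a2 (0.990), the splicing regulator Mbnl1 (0.988) and the integrin gene Itgb8 (0.986). Ikzf4 was most like Pofut1 (0.966), Gm37494 (0.959) and Sesn3 (0.951), and Ikzf5 was most like Zbtb26 (0.998), Cep85 (0.988) and Itga2b (0.984). An r above 0.95 was reached by 235 genes for Ikzf1 and 185 for Ikzf3, but by 20 for Ikzf2, 11 for Ikzf5 and 3 for Ikzf4.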

How the data were processed

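RNA of splenic CD4+CD25+ cells was sequenced in 7 libraries, grouped by the age in the labels. The authors deposited raw counts per Ensembl gene for each library, against mm10 in the submitters' processing notes. The aligner and the annotation are not given in the sources used here. Reads on no gene or several genes (13.1% to 20.9%) were left out. A deposited table for the series holds signal values, which the authors made from counts with 1 size factor per library, and the authors' own comparison, which was not used.

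Counts were tested in R 4.3.3 with edgeR 4.0.16 (TMM, filterByExpr, quasi-likelihood test, Benjamini-Hochberg adjustment over 13904 genes, threshold 0.05). CPM is on the TMM scale. Single values and within-library ratios were compared by exact two-sided permutation tests, whose smallest p is 0.0571. Named genes were the 5 members, the called genes of lists of partners, targets and cell type markers, and the 3 genes most like each member. Members and lists were chosen with earlier results of these data known. Alternatives were DESeq2 1.42.0, limma 3.58.1, other scalings and filters, thinning, GC and length trends, a replicate block and leaving out each library. Coordinates, lengths and sequences came from GENCODE M21 (GRCm38), which holds 47310 of the 47729 gene IDs. Counts were simulated for aged against young with 200 changed genes, fewer than the 2327 called in the data, so recovery in the data may differ. On these counts edgeR recovered 51 of 96 genes changed by 1 on the log2 scale and 88 of 103 changed by 2. It made 16 false calls among 155 on 13668 genes. DESeq2 made 36 false calls among 191 on 13904 genes and, with no gene changed, 18 where edgeR made 0. Replicate libraries of an age differed beyond sampling noise, and none was counted as a duplicate. Some items of the lists and sequences are not reported here.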

Additional observations from a re-analysis of the deposited data

Results flagged for a closer look

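Young replicate 2 stood apart from the other 3 young libraries for Ikzf5, with 0.771 CPM against 1.72 to 1.84 CPM, a gap of 0.892 of the whole range, above Dixon's 95% limit for 4 samples. The same library carried the same low count into the quantities that contain Ikzf5: the Ikzf5 share of the family (0.085% against 0.196% to 0.203%) and the log2 ratios Ikzf1/Ikzf5 (9.17 against 7.91 to 8.04), Ikzf3/Ikzf5 (7.98 against 6.83 to 6.91), Ikzf5/Foxp3 (-9.72 against -8.34 to -8.08) and Ikzf5 to the T cell list (-11.9 against -10.5 to -10.3). Young replicate 2 also stood apart for 6 plasma cell genes (2003 CPM summed, against 325 to 497 CPM) and for immunoglobulin genes (2.93% of counts, against 0.620% to 0.907%). It held 11 reads of Ikzf5, and without it the log2 fold change of Ikzf5 was 1.04 (adjusted p = 0.103). In all, 8 of 51 young groups of values stood apart in this way, where chance flags about 1 in 20, and 6 of the 8 share these 11 reads. The aged group of 3 was not examined in this way.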

How the results depend on the processing

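All 5 family genes kept their sign in every fit. Ikzf1 lost its call when libraries were scaled by size only (log2 fold change -0.60, adjusted p = 0.0526), and ranged from -0.69 to -0.45 with 1 library left out. Ikzf2 was called only with GC content and length trends removed (0.56). Ikzf3 was called with DESeq2 (-0.59) and ranged from -0.88 to -0.38 with 1 library left out, and Ikzf5 was called with DESeq2 (1.24) and ranged from 0.92 to 1.56. The cause of these changes was not tested. Genes called numbered 2327, and 1237 to 3058 with 1 library left out. Called partner and target genes numbered 8, and 3 to 11 with 1 library left out. The log2 difference of Ikzf1/Ikzf3 ranged from -0.05 to 0.20 and that of Ikzf4/Foxp3 from -0.08 to 0.13 with 1 library left out, and the latter was -0.0004 after thinning to the smallest total. With the longest protein-coding transcript, 3 of 5 genes kept their place in the order of aged levels.

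Scaling on T cell genes moved the median of all genes from 0.019 to -0.114 on the log2 scale and the share of calls that were higher in aged from 58.5% to 47.7%; on that scale Ikzf1 was at -0.66 (adjusted p = 0.0483) and Ikzf2 at 0.35.

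Replicate numbers did not pair the samples: same-numbered deviations from the group means had correlations of -0.091, -0.292 and -0.138. With a replicate block, in which young replicate 4 has no partner, the Ikzf1 log2 fold change was -0.55 (adjusted p = 0.131), 292 genes were called, and 0 of the partner and target genes, 9 of which had an unadjusted p under 0.05, as had 3268 of all 13904 genes.

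Among the 5 family genes depth limited Ikzf5 most, at 11 to 56 reads in each library.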
